A study of Homo sapiens with 6 samples.

Results

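The genes of SREBP control and lipoprotein uptake described here were followed in SU-DHL-8, a cell line derived from diffuse large B-cell lymphoma and labelled WT. They were chosen by symbol and were 8 of 65746 genes in the deposited count table: the transcription factor genes SREBF1 and SREBF2, the escort gene SCAP, the retention genes INSIG1 and INSIG2, the protease genes MBTPS1 and MBTPS2, and the receptor gene SCARB1. Treated libraries came from cells given 15 µM beta-sitosterol (β-ST, a plant sterol) for 24 h, 3 libraries, and the control libraries, also 3, from cells given the solvent DMSO for the same time. All came from 1 cell line grown in serum-containing medium, and nothing says that replicates were separate cultures, so p-values measure only the spread between these libraries, which may be technical.

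SREBPs are transcription factors made as precursors in the membrane of the endoplasmic reticulum. SCAP binds the precursor and senses cholesterol. When sterol is plentiful an INSIG protein holds SCAP in place, and when it is scarce SCAP carries the precursor to the Golgi, where the site-1 protease and then the site-2 protease cut it and free the active factor. SREBP-2, from SREBF2, mainly drives genes of cholesterol synthesis and uptake, and SREBP-1, from SREBF1, mainly those of fatty acid synthesis. Lymphocytes use the same system to supply membranes when they grow.

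Beta-sitosterol libraries held 26453101 to 29359951 counts and DMSO libraries 31314104 to 35565163. Values below are CPM (counts scaled to a common library size, with TMM factors), with the SD over 3 libraries after ± unless marked SE, and tests are two-sided edgeR quasi-likelihood tests over 11525 genes, with Benjamini-Hochberg adjustment over all of them and a threshold of 0.05. The median SD of log2 CPM between replicates was 0.0862 in beta-sitosterol libraries and 0.275 in DMSO libraries. By mean correlation to the other DMSO libraries, DMSO replicate 2 was lowest at 0.977, against 0.981 for replicate 3 and 0.986 for replicate 1. All 6 B-cell marker genes were detected and summed to 2240 to 2400 CPM after beta-sitosterol and 1770 to 2470 CPM in DMSO. Within that sum the markers moved in opposite directions. PAX5, a transcription factor gene of B cells, fell, with 208, 198 and 217 CPM after beta-sitosterol and 610.1, 692 and 677 CPM in DMSO. MS4A1, which encodes CD20, rose, with 18.6, 16.9 and 19.6 CPM after beta-sitosterol and 3.93, 4.55 and 3.29 CPM in DMSO. CD79A, a signalling chain of the B-cell receptor, rose, with 764, 738 and 799.8 CPM after beta-sitosterol and 328, 363 and 423 CPM in DMSO, and the other 3 did not pass the threshold. Monocyte markers summed to 6.14 to 8.4 CPM after beta-sitosterol and 4.61 to 7.01 CPM in DMSO. Of 3 T-cell markers 2 were at 0 in every library. Epithelial markers summed to 0.102 to 0.836 CPM after beta-sitosterol and 0.0314 to 0.0881 CPM in DMSO, and fibroblast markers to 0.492 to 0.909 CPM after beta-sitosterol and 0 to 0.0577 CPM in DMSO, and their part in the results was not tested. With tested genes split by transcript length into 3 equal classes, the median log2 fold change of all tested genes was 0.16 for short, -0.02 for middle and -0.20 for long genes. Of the 8 genes 0 were in the short class, 3 (INSIG1, INSIG2 and MBTPS2) in the middle and 5 in the long class.

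After beta-sitosterol, 4 of the 8 genes fell, INSIG1, SCARB1, SREBF1 and SREBF2, and 0 rose. The other 4, SCAP, MBTPS1, INSIG2 and MBTPS2, did not pass the threshold. Among all tested genes 21.8% were called lower and 19.0% higher, 2512 and 2185 genes. On log2(TPM + 1), 2226 were lower and 713 higher. The median log2 fold change of the 8 genes was -0.52, against -0.04 over all tested genes. For 6 of the 8 genes every beta-sitosterol value was below every DMSO value, which held for 29.1% of tested genes. In bulk RNA, fewer cells of a kind and less RNA per cell cannot be told apart.

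**Figure D1:**
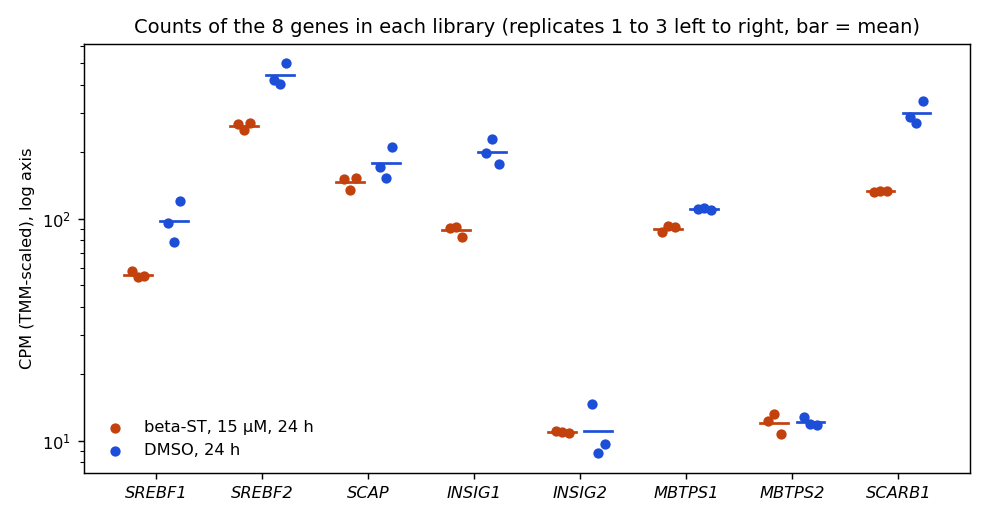
Level of each of the 8 genes in each library, in CPM on a log axis, with beta-sitosterol libraries in orange-red to the left of DMSO libraries in blue, replicates 1 to 3 from left to right and a bar at the mean. The groups are fully apart for SREBF1, SREBF2, SCAP, INSIG1, MBTPS1 and SCARB1, and overlap for INSIG2 and MBTPS2.

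Both SREBP genes fell. SREBF2 (ENSG00000198911, GRCh38, chromosome 22, 41833079 to 41907308, plus strand) had 268, 249.8 and 270.02 CPM in the beta-sitosterol libraries, against 420.2, 406 and 499.99 CPM in DMSO libraries. The beta-sitosterol libraries lay close together, and the highest DMSO value was that of replicate 3. The means were 263 ± 11.2 CPM after beta-sitosterol and 442 ± 50.8 CPM in DMSO (SD, n = 3 each), and the fitted log2 difference was -0.75 ± 0.12 (SE; edgeR adjusted p = 0.0018).

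SREBF1 (ENSG00000072310, chromosome 17, 17810399 to 17837002, minus strand) had 58.3, 54.4 and 54.9 CPM after beta-sitosterol, against 95.4, 78.5 and 119.6 CPM in DMSO. The groups did not overlap, though DMSO libraries spread more widely, with replicate 2 lowest and replicate 3 highest. The log2 fold change was -0.81 ± 0.16 (SE; edgeR adjusted p = 0.0049), and on log2(TPM + 1) the gene missed the threshold (limma adjusted p = 0.053). SREBF1 shares 556 exonic bases with RAI1 on the opposite strand, which also fell, with a fitted log2 difference of -1.17 ± 0.12 (SE; edgeR adjusted p = 3.07e-04). Whether counting used strand is not given in the sources used here, and the part of such reads in the SREBF1 value was not tested. SREBF2 shares 280 exonic bases with the antisense gene SREBF2-AS1, which was listed at 0 in every library.

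The upstream sequences of both factor genes are shown because SREBPs are known to act on the SREBF2 promoter through a sterol regulatory element. Each run is the 250 bases before the RefSeq transcript start (GRCh38.p14), written in the direction of the gene, and capitals mark matches to any motif searched. SREBF2 is at chr22:41832855-41833104 on the plus strand and SREBF1 at chr17:17836987-17837236 on the minus strand.
SREBF2: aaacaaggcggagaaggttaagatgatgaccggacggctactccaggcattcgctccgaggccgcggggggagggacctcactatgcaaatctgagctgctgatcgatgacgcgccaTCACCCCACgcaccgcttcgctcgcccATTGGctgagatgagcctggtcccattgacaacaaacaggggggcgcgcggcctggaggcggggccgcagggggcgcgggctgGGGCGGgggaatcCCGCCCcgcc
SREBF1: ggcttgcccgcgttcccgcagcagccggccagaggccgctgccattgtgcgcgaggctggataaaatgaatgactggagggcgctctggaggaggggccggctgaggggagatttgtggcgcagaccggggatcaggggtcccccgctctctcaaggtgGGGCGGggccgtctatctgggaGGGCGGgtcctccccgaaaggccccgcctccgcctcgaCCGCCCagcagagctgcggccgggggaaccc
The motifs were TCACNCCAC for the core of the element, CACGTG for the E-box, CCAAT for the box bound by NF-Y and GGGCGG for the box bound by Sp1, each on both strands. The SREBF2 run holds 1 match to the element, TCACCCCAC, from 133 to 125 bases before the start, with an inverted CCAAT box from 106 to 102 bases before it and 2 GC boxes. Over 35116 promoter entries of the same length, 0.883% hold the element, 32% a CCAAT box, 6.34% the E-box and 42.6% a GC box. The SREBF1 run holds 3 GC boxes and none of the other motifs. It belongs to the only SREBF1 start in the promoter set used, and other starts of the gene were not searched. A match to letters does not show that a factor binds there, and the absence of one says nothing about the factor.

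Each SREBP gene also carries a microRNA of the miR-33 family in an intron, and miR-33 is known to lower the sterol exporter ABCA1. MIR33A lies in intron 17 of SREBF2 and MIR33B in intron 16 of SREBF1, counted in a transcript of 20 exons and in one of 19 in GENCODE v29. Their mature 5p strands are shown because they are products of the same transcripts as the factors. Capitals mark the seed, bases 2 to 8, which is the same in both, and the strands differ at 2 of the first 20 positions.
hsa-miR-33a-5p: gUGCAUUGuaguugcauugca
hsa-miR-33b-5p: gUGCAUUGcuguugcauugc
These libraries do not measure mature microRNAs. MIR33A was listed at 0 in all 6 libraries, and MIR33B had 0 counts in each beta-sitosterol library, against 2, 0 and 2 in DMSO, which is too few for a comparison. ABCA1 had a log2 fold change of 0.24 ± 0.40 (SE) and did not pass the threshold (edgeR adjusted p = 0.67).

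The escort gene SCAP (ENSG00000114650, chromosome 3, 47413694 to 47477126, minus strand) had 151, 135 and 152 CPM after beta-sitosterol, against 170.2, 153 and 211 CPM in DMSO. The lowest DMSO value, of replicate 2, was just above the highest beta-sitosterol value. The log2 fold change of -0.29 ± 0.14 missed the threshold (SE; edgeR adjusted p = 0.14), with a 95% interval of -0.61 to 0.04. Without DMSO replicate 2 it was -0.39 and passed (edgeR adjusted p = 0.0041), and without DMSO replicate 3 it was -0.11 (edgeR adjusted p = 0.44). Without replicate 2, 3549 of 11724 tested genes were called lower, against 2512 of 11525 with all libraries.

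Of the retention genes INSIG1 fell, and INSIG2 did not pass the threshold. INSIG1 (ENSG00000186480, chromosome 7, 155297776 to 155310235, plus strand), itself a well-known SREBP target, had 91.1, 91.4 and 82.9 CPM after beta-sitosterol, against 197, 227 and 176 CPM in DMSO. Every beta-sitosterol value was far below the lowest DMSO value, and the groups did not overlap. Its log2 fold change was -1.18 ± 0.13 (SE; edgeR adjusted p = 4.12e-04), a level 2.26-fold lower after beta-sitosterol, at percentile 4.22 of the fold changes of all tested genes. Among DMSO libraries INSIG1 was highest in replicate 2, where SREBF1, SREBF2, SCAP and SCARB1 were at their lowest.

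INSIG2 (ENSG00000125629, chromosome 2, 118088452 to 118110997, plus strand) had 10.998, 10.9 and 10.8 CPM after beta-sitosterol, against 14.6, 8.75 and 9.61 CPM in DMSO. The DMSO libraries lay on both sides of the beta-sitosterol ones. Its log2 fold change was -0.013 ± 0.20 (SE; edgeR adjusted p = 0.96), with a 95% interval of -0.48 to 0.45, and its sign changed with the scaling (0.021 with RLE factors).

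The count ratio of INSIG1 to INSIG2 does not depend on library scaling. Its log2 was 3.05, 3.06 and 2.95 after beta-sitosterol and 3.75, 4.70 and 4.19 in DMSO, so the groups did not overlap, and the means differed by -1.19. An exact two-sided permutation test of 3 against 3 libraries gave p = 0.1, the smallest it can give, and 0.15 after adjustment over 3 ratios. The log2 ratio of SREBF1 to SREBF2 averaged -2.23 ± 0.06 after beta-sitosterol and -2.19 ± 0.16 in DMSO (exact permutation p = 0.8). That of MBTPS1 to MBTPS2 averaged 2.91 ± 0.15 after beta-sitosterol and 3.18 ± 0.07 in DMSO (exact permutation p = 0.1, adjusted 0.15). Its groups did not overlap either, with a highest beta-sitosterol value of 3.09 and a lowest DMSO value of 3.11. INSIG1 and INSIG2 together had 1.73, 1.94 and 1.57 TPM per TPM of SCAP after beta-sitosterol, against 3.19, 3.98 and 2.26 in DMSO, a ratio chosen after its values were seen and not tested.

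**Figure D2:**
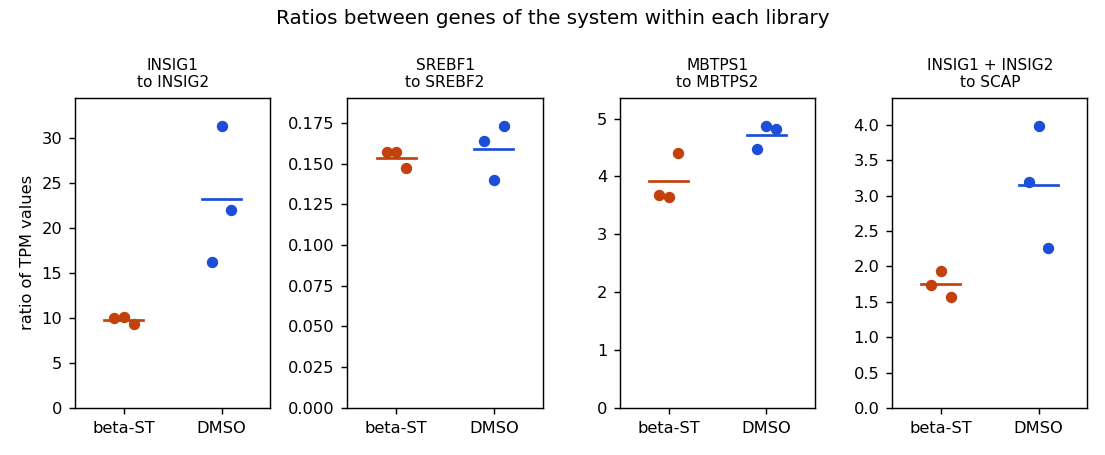
Ratios of deposited TPM values within each library, on linear axes from 0, with beta-sitosterol libraries in orange-red to the left of DMSO libraries in blue and a bar at the mean of 3. INSIG1 to INSIG2, MBTPS1 to MBTPS2 and INSIG1 plus INSIG2 to SCAP are lower in all 3 beta-sitosterol libraries than in any DMSO library. For MBTPS1 to MBTPS2 the nearest values are 4.41 after beta-sitosterol and 4.47 in DMSO. SREBF1 to SREBF2 overlaps between groups.

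The INSIG promoters are shown to set the gene that fell beside its paralogue, with the same motifs in capitals. INSIG1 is at chr7:155297628-155297877 and INSIG2, from the first of 2 RefSeq starts, at chr2:118088221-118088470, both on the plus strand.
INSIG1: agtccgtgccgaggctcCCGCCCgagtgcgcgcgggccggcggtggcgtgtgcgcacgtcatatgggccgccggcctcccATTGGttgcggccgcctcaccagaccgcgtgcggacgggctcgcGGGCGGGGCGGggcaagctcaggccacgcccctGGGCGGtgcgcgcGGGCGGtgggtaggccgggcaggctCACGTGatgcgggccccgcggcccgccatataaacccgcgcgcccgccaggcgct
INSIG2: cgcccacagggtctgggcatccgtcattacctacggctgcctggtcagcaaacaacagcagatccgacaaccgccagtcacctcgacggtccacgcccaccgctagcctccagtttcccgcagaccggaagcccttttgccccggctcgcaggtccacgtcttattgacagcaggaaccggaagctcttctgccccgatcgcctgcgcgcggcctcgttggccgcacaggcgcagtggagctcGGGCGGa
The INSIG1 run is 78.4% G and C and holds 1 E-box from 55 to 50 bases before the start, 1 inverted CCAAT box from 170 to 166 bases before it and 5 GC boxes. The INSIG2 run is 65.6% G and C and holds 1 GC box alone. RefSeq promoters were at hand for 7 of the 8 genes. Of these 7, SREBF2 was the only one with the exact element, INSIG1 and SCAP had an E-box, SREBF2 and INSIG1 a CCAAT box, and MBTPS1 and MBTPS2 had none of the 4 motifs.

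Neither protease gene passed the threshold. MBTPS1 (ENSG00000140943, chromosome 16, 84053761 to 84116906, minus strand), which encodes the site-1 protease, had 86.6, 92.8 and 91.3 CPM after beta-sitosterol, against 110.0, 111 and 109 CPM in DMSO. The groups were fully apart and the DMSO libraries nearly equal. Its log2 fold change was -0.29 ± 0.11 (SE; edgeR adjusted p = 0.058), and without DMSO replicate 2 it was -0.28 and passed (edgeR adjusted p = 0.012). The fit without replicate 2 called 3549 of 11724 tested genes lower. MBTPS2 (ENSG00000012174, chromosome X, 21839636 to 21885424, plus strand), which encodes the site-2 protease, had 12.2, 13.2 and 10.7 CPM after beta-sitosterol, against 12.8, 11.8 and 11.7 CPM in DMSO. The groups overlapped, and the fitted log2 difference was -0.0081 ± 0.14 (SE; edgeR adjusted p = 0.97), with a 95% interval of -0.33 to 0.31 and a sign that changed with the scaling (0.022 with RLE factors). MBTPS2 shares 1093 exonic bases with YY2 on the same strand, so reads there cannot be assigned with certainty.

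SCARB1 (ENSG00000073060, chromosome 12, 124776856 to 124882668, minus strand) encodes scavenger receptor B1, which takes up cholesteryl ester from high-density lipoprotein. It had 132, 134 and 133 CPM after beta-sitosterol, against 286, 268 and 340 CPM in DMSO. The beta-sitosterol libraries were almost equal, and each was below the lowest DMSO library. The log2 fold change was -1.16 ± 0.12 (SE; edgeR adjusted p = 3.23e-04), a level 2.24-fold lower after beta-sitosterol, at percentile 4.38 of the fold changes of all tested genes.

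With the trend of log2 CPM on transcript length removed, the log2 fold change was -1.21 for INSIG1, -1.02 for SCARB1, -0.59 for SREBF2 and -0.57 for SREBF1, and all 4 passed (edgeR adjusted p = 3.67e-04, 7.41e-04, 0.0076 and 0.033). SCAP then stood at -0.12 and MBTPS1 at -0.16 (edgeR adjusted p = 0.57 and 0.26). The values of the 3 middle-length genes moved least, and those of the long genes moved towards 0. With DMSO replicate 2 also left out, a setting chosen after seeing the data, SCAP stood at -0.23 and MBTPS1 at -0.17. Neither passed there (edgeR adjusted p = 0.086 and 0.13).

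**Figure D3:**
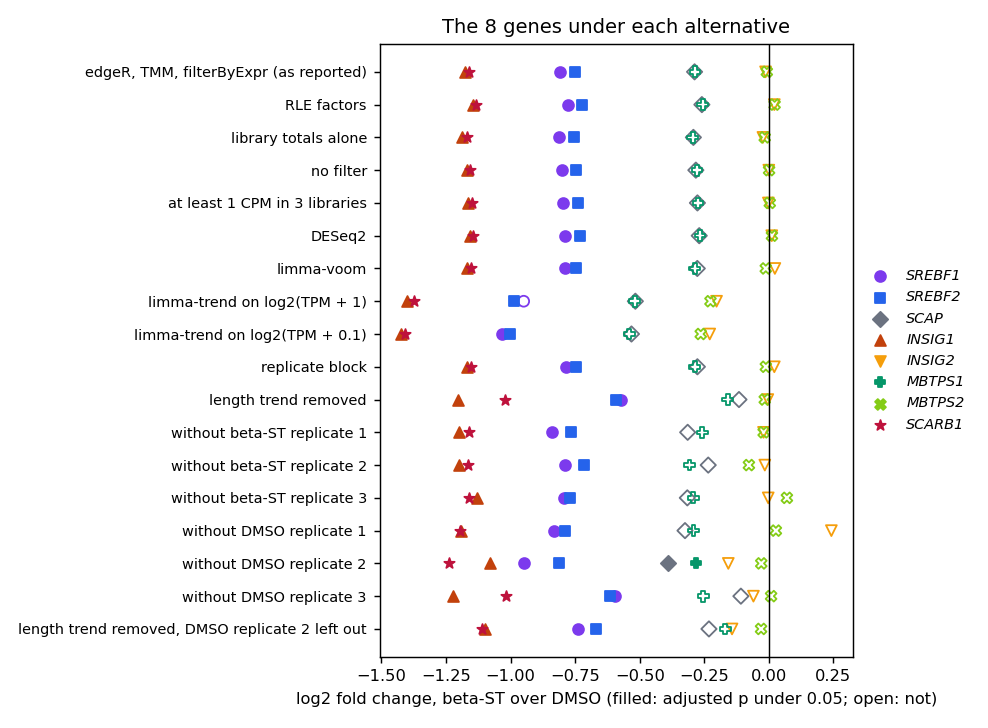
Log2 fold change of each of the 8 genes, beta-sitosterol over DMSO, under the reported fit in the top line and each alternative below it, with filled marks where the adjusted p was under 0.05. INSIG1, SCARB1 and SREBF2 are filled in every line, SREBF1 in all but the line of log2(TPM + 1), and SCAP and MBTPS1 only in the line without DMSO replicate 2.

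Per transcript length, in deposited TPM, the order of the 8 levels was read within each library because the genes listed held 39.5% of all TPM in DMSO replicate 2 and 57.0% to 69.2% in the others. SREBF2 had the highest level of the 8 in all 3 beta-sitosterol libraries and in DMSO replicate 3, and INSIG1 in DMSO replicates 1 and 2. SREBF2 averaged 43.2 ± 1.96 TPM after beta-sitosterol and 89.6 ± 27.9 TPM in DMSO, and INSIG1 averaged 35.8 ± 2.37 TPM after beta-sitosterol and 96.8 ± 14.5 TPM in DMSO. In DMSO these 2 neighbours did not differ beyond their spread. SCARB1 and SCAP did not differ beyond their spread after beta-sitosterol, at 23.2 ± 0.30 and 22.7 ± 1.54 TPM, whereas in each DMSO library SCARB1 was the higher, with means of 64.2 ± 20.7 and 34.4 ± 12.3 TPM. MBTPS1 came next and then SREBF1 in every library, at 16.8 ± 0.43 and 6.63 ± 0.34 TPM after beta-sitosterol and 24.9 ± 5.72 and 14.5 ± 5.78 TPM in DMSO. MBTPS2 and INSIG2 were lowest, at 4.32 ± 0.47 and 3.66 ± 0.09 TPM after beta-sitosterol and 5.31 ± 1.37 and 4.63 ± 2.11 TPM in DMSO, and swapped places in DMSO replicate 1.

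Genes whose log2 CPM followed INSIG1 most closely over the 6 libraries, of 6430 genes that averaged 20 CPM or more, were CDV3 (Pearson r = 0.9995), DHX33 (0.9989) and DDX17 (0.9988). For SREBF2 they were UBE2O (0.9994), RBM15B and SOX12 (0.9985 each). The 6 libraries share 2 groups, so these values describe both the group difference and the order of the DMSO libraries.

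Of 21 tested enzymes of sterol synthesis, a pathway that SREBPs are known to drive, 5 fell and 1 rose, with a median log2 fold change of -0.20. In this fit the 23.8% that fell is near the 21.8% of all tested genes called lower, so its count shows nothing particular to these enzymes. The share that rose was 4.76%, against 19.0% of all tested genes. FDFT1, squalene synthase, averaged 203 ± 5.84 CPM after beta-sitosterol and 314 ± 8.83 CPM in DMSO (log2 fold change -0.63, edgeR adjusted p = 0.0018). HMGCS1, which makes the precursor of mevalonate, averaged 53.1 ± 1.56 CPM after beta-sitosterol and 86.7 ± 8.33 CPM in DMSO (edgeR adjusted p = 0.0022). LSS, which closes the sterol rings, and mevalonate kinase gene MVK also fell. The gene that rose, ACAT2, a cytosolic acetyl-CoA acetyltransferase, averaged 156 ± 7.21 CPM after beta-sitosterol and 101 ± 14.5 CPM in DMSO (edgeR adjusted p = 0.0071). The count is sensitive to single DMSO libraries. Without DMSO replicate 2, 9 enzymes were lower and 2 higher, against 3549 lower and 3091 higher of 11724 tested genes. Without DMSO replicate 3, 3 enzymes were higher, against 2564 of 11725 tested genes.

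Of 11 tested fatty acid synthesis genes 5 fell (45.5%, against 21.8% of all tested genes) and 0 rose, with a median of -0.31, and leaving out any 1 library left 5 or 6 lower. FASN, fatty acid synthase, averaged 549 ± 23.6 CPM after beta-sitosterol and 1338 ± 322 CPM in DMSO (log2 fold change -1.28, edgeR adjusted p = 8.74e-04). ACACA, cytosolic acetyl-CoA carboxylase, had a log2 fold change of -1.21 and the mitochondrial form ACACB one of -1.58 (edgeR adjusted p = 1.69e-04 and 2.18e-04). SCD, which desaturates fatty acids, and ACLY, which makes cytosolic acetyl-CoA, were the others.

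Among 16 tested genes of SREBP turnover and sterol movement, 6 fell (37.5%, against 21.8% of all tested genes) and 0 rose, with a median of -0.14. GSK3B, a kinase that marks the active factor for destruction, averaged 25.97 ± 0.93 CPM after beta-sitosterol and 46.8 ± 6.003 CPM in DMSO (edgeR adjusted p = 0.0017). NPLOC4, a cofactor of VCP in the removal of membrane proteins for degradation, averaged 150.1 ± 1.57 CPM after beta-sitosterol and 236 ± 21.6 CPM in DMSO (edgeR adjusted p = 0.0025). TMEM97 and the ubiquitin ligase genes FBXW7 and RNF145 also fell. The count of lower genes was smaller without some single libraries, 2, 3 and 2 without beta-sitosterol replicate 1, 2 or 3 and 3 without DMSO replicate 1. In the same order, 1617 of 11765, 1593 of 11786, 1654 of 11742 and 2038 of 11715 tested genes were lower, against 2512 of 11525 with all libraries. On this list 1 gene was higher without DMSO replicate 1 or 2. UFD1 and SPRING1 were listed at 0 in every library and are not judged here.

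The COPII coat buds the vesicles that carry SCAP from the endoplasmic reticulum. Of 12 genes of the coat and its assembly, SEC16A and PREB among them, 3 fell and 1 rose, with a median of -0.10. The 25% that fell is near the 21.8% of all tested genes called lower, and the 8.33% that rose is below the 19.0% called higher. The count that fell therefore shows nothing particular to these genes, and the count that rose rests on 1 of 12 genes. SEC16A and SEC24C had log2 fold changes of -0.68 and -0.59, and the GTPase gene SAR1B one of 0.77 (edgeR adjusted p = 0.0018, 0.0041 and 0.0060). SEC24D was the other that fell. Genes of other proteins that either protease cuts moved both ways, 2 of 5 lower and 2 higher, against 21.8% and 19.0% of all tested genes. Their median of -0.32 was the value of GNPTAB, the gene of an enzyme and not of a factor, which did not pass (edgeR adjusted p = 0.11). ATF6B and ATF6, of the unfolded protein response, had log2 fold changes of -0.69 and -0.53, and CREB3 one of 0.85 (edgeR adjusted p = 0.0044, 0.031 and 0.0097). CREB3L4 was the other that rose. Each of these counts of 2 was 1 without any 1 beta-sitosterol library or without DMSO replicate 1. Calls over all tested genes were fewer there too. Without 1 beta-sitosterol library 1593 to 1654 were lower and 1501 to 1510 higher, against 2512 and 2185 with all libraries. Without DMSO replicate 1 these were 2038 and 1781.

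Other uptake genes moved both ways. Of 10 tested, 4 rose (40%, against 19.0% of all tested genes) and 1 fell, with a median of 0.33. LRP8, a lipoprotein receptor gene, fell, averaging 102 ± 2.85 CPM after beta-sitosterol and 168 ± 26.8 CPM in DMSO (edgeR adjusted p = 0.0040). LRPAP1, the chaperone of such receptors, averaged 104 ± 1.15 CPM after beta-sitosterol and 36.2 ± 8.42 CPM in DMSO (edgeR adjusted p = 4.75e-04). The lysosomal sterol carrier gene NPC2 averaged 32.2 ± 2.77 CPM after beta-sitosterol and 17.0 ± 0.99 CPM in DMSO (edgeR adjusted p = 0.0010). The lysosomal lipase gene LIPA also rose, close to the threshold (edgeR adjusted p = 0.040). CXCL16, a scavenger receptor and chemokine gene, rose too, at 1.76 ± 0.19 CPM after beta-sitosterol and 0.25 ± 0.04 CPM in DMSO (edgeR adjusted p = 3.08e-04). On log2(TPM + 1) 2 rose, against 713 of 11525 tested genes. With the length trend removed 2 fell, against 2397 of 11525. The count that rose was 3 without any 1 beta-sitosterol library, without DMSO replicate 1, with no filter and with the replicate block. Over all genes 1501 to 1510 were higher without 1 beta-sitosterol library and 1781 without DMSO replicate 1. With no filter 2432 of 18423 were higher, and with the replicate block 2306 of 11525.

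LXR receptors are activated by oxidised sterols and are known to raise SREBF1. Of 9 tested LXR genes 4 rose (44.4%, against 19.0% of all tested genes) and 0 fell, with a median of 0.24, while SREBF1 fell. APOE averaged 6.74 ± 1.07 CPM after beta-sitosterol and 1.27 ± 0.52 CPM in DMSO (edgeR adjusted p = 5.68e-04). The phospholipid carrier gene PLTP averaged 35.985 ± 2.63 CPM after beta-sitosterol and 13.9 ± 2.86 CPM in DMSO (edgeR adjusted p = 6.57e-04). MYLIP, which directs lipoprotein receptors to degradation, averaged 9.91 ± 1.51 CPM after beta-sitosterol and 5.77 ± 0.82 CPM in DMSO (edgeR adjusted p = 0.0095). The sterol exporter gene ABCG1 also rose, close to the threshold (edgeR adjusted p = 0.045). The receptor genes NR1H3 and NR1H2 had log2 fold changes of -0.22 and 0.07 and did not pass. Nor did ABCA1, LPCAT3 and RXRB, at 0.24, -0.23 and 0.02 (edgeR adjusted p = 0.67, 0.25 and 0.96). Without beta-sitosterol replicate 3, 2 genes rose, against 1507 of 11742 tested genes. The count was 3 without beta-sitosterol replicate 1 or 2 or without DMSO replicate 1. In the same order, 1510 of 11765, 1501 of 11786 and 1781 of 11715 tested genes were higher.

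**Figure D4:**
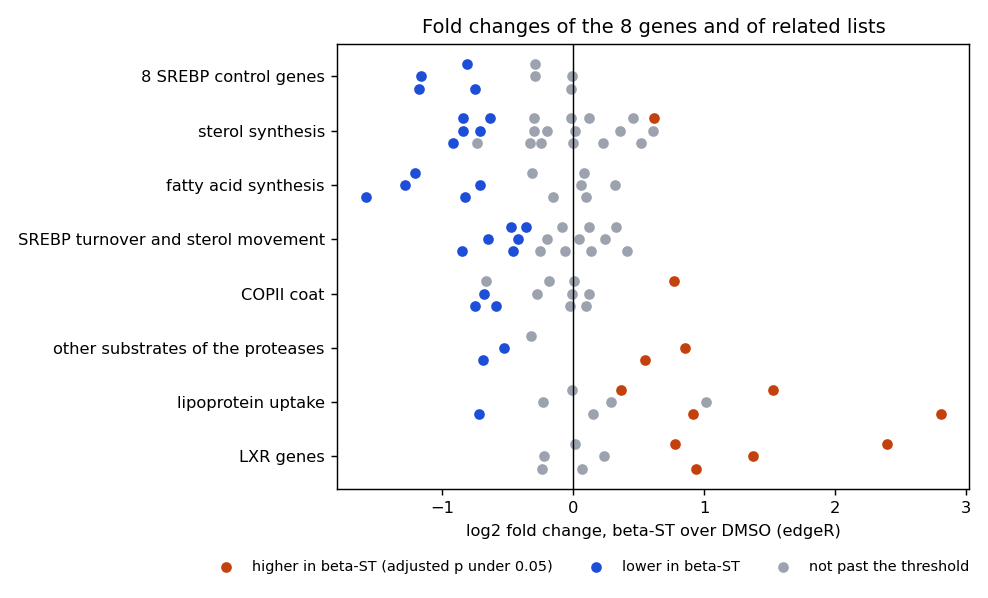
Log2 fold change, beta-sitosterol over DMSO, of each tested gene in the 8-gene system and 7 related lists, with genes higher after beta-sitosterol in orange-red, lower in blue and not past the threshold in grey. The 8 genes all lie at or left of 0, fatty acid genes hold 5 blue points and no orange-red one, and LXR genes hold 4 orange-red points and no blue one.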

How the data were processed

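RNA of 6 SU-DHL-8 libraries was sequenced. The authors deposited raw whole-number counts for each gene, and TPM, which corrects for length and library. Per the submitters' processing notes, the build was GRCh38 and the tools were StringTie 2.2.1, featureCounts 2.0.1, STAR 2.7.10 and fastp 0.23.2, with no roles stated; the sources used here do not give annotation, strand or multi-mapping. Of 65807 rows, 61 repeats of a symbol were dropped, 2 of them with counts. Counts were fitted in R 4.3.3 with edgeR 4.0.16 (TMM, filterByExpr, treatment only) across all genes and tested on simulated data. Each SE was obtained from the F statistic as |log2 fold change| divided by its root. Alternatives were RLE factors, library totals, no filter, 1 CPM in 3 libraries, DESeq2 1.42.0, voom and log2(TPM + 1) or log2(TPM + 0.1) in limma 3.58.1, a replicate block, a length offset and each library left out; the length offset without DMSO replicate 2 was chosen after seeing the data. Relative length was the ratio of count to TPM. The 8 genes and all lists were chosen with earlier results of these data known. Named genes were the 8, the 3 called genes of smallest p per list, and the 3 closest in pattern to INSIG1 and to SREBF2. The other called genes of the lists, the B-cell markers PAX5, MS4A1 and CD79A, and the neighbours RAI1 and YY2 were added after their values were seen. So were ABCA1, LPCAT3, NR1H3, NR1H2, RXRB and GNPTAB. Some genes that the rule names are not reported here. Positions are from GENCODE v29, and sequences from RefSeq (GRCh38.p14).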

Additional observations from a re-analysis of the deposited data

How the results depend on the processing

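The count of genes lower stayed at 3 to 6 of 8 and the count higher at 0 in all 17 alternatives, with 6 lower without DMSO replicate 2 and 3 lower on log2(TPM + 1). Log2 fold changes ranged from -1.42 to -1.08 for INSIG1, -1.41 to -1.02 for SCARB1, -1.001 to -0.59 for SREBF2 and -1.03 to -0.57 for SREBF1. On the 2 TPM scales the median log2 fold change over all tested genes was -0.19 and -0.26, against -0.04 in the reported fit. INSIG2 changed sign near 0 with RLE factors (0.021), DESeq2 (0.011), voom (0.023) and the replicate block (0.021), and ran from -0.16 to 0.24 with single libraries left out. MBTPS2 did so with RLE factors (0.022), no filter (5.97e-04), 1 CPM in 3 libraries (0.0033) and DESeq2 (0.012), and ran from -0.078 to 0.070. The SREBF1 to SREBF2 difference ran from -0.13 to 0.022. The cause was not tested. Same-numbered libraries correlated at 0.0388, 0.101 and 0.154 in their deviations, so the numbers were not taken as pairs. Each library still correlated best with its own number. With the replicate block 4 of the 8 genes were lower, and 3 of 21 sterol synthesis genes were higher in place of 1. In that fit 2437 of 11525 tested genes were lower and 2306 higher. Over all genes 1501 to 1510 were higher and 1593 to 1654 lower without 1 beta-sitosterol library, and 3091 and 3549 without DMSO replicate 2. On both TPM scales the counts higher were 0 for sterol synthesis, the COPII coat and the protease substrates and 2 for uptake and LXR genes. Over all genes 713 of 11525 were higher on log2(TPM + 1) and 691 on log2(TPM + 0.1). With the length trend removed and DMSO replicate 2 left out, chosen after seeing the data, 4 of the 8 genes and 11 sterol synthesis genes were lower. In that fit 3306 of 11724 tested genes were lower.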

Other observations

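Of the scavenger receptor genes on the uptake list other than CXCL16, which rose, CD36 was listed at 0 in all 6 libraries, OLR1 had 1, 0 and 1 counts after beta-sitosterol and 0, 0 and 2 in DMSO, and MSR1 had 0, 0 and 3 counts after beta-sitosterol and 7, 0 and 0 in DMSO. STAB1 had 6, 5 and 5 counts after beta-sitosterol and 4, 2 and 2 in DMSO, and none of these 4 was tested. The receptor gene LRP1 had 44, 14 and 37 counts after beta-sitosterol and 10, 18 and 28 in DMSO, and the groups overlapped.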
